A study of Mus musculus with 57 samples.

Results

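The comparison concerned ribosome-bound messenger RNA from kidneys of the endothelial (cdh5-CRE) mouse line, in mice that had no operation. Its members were the 3 endothelial arrays without surgery, of 57 arrays in all, chosen by their titles and set against the mean of the 3 other tagged cell lines without surgery (3 arrays each, every line with equal weight). The comparison thus used 12 arrays, and it ran over all 19159 genes that passed a floor on low values. In each mouse line a Cre driver switches on a tagged ribosomal protein, eGFP-L10a, in the cells that make Cre and in all their descendants. Tagged ribosomes are pulled out of kidney homogenate with antibodies to GFP (translating ribosome affinity purification, TRAP), and the attached RNA is read on Affymetrix Mouse Gene 1.0 ST arrays. The study was about ischemic injury, with a 28 min clamp of both renal pedicles, and the arrays from clamped kidneys are not described here.

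The endothelial mice carried cdh5-CRE with Rosa26-CAGGS-eGFPL10a and were 6 weeks old, both without surgery and after sham surgery. The nephron mice carried six2-CRE with the same allele, at 6 weeks without surgery and 8 weeks after sham surgery. The interstitial mice carried foxd1-CRE with that allele and were 6 weeks old in both conditions, and the macrophage mice carried lyz2-CRE with it and were 7 weeks old in both. Each of these 8 groups held 3 arrays, and sham kidneys were taken at 24 h. Background groups of 2 arrays each, 24 h after sham surgery at 8 weeks, came from wild type C57BL/6 kidneys without a tag and from mice with the L10a allele and no Cre. The L10a mice are given as homozygous in one label and as Rosa26-CAGGS-eGFPL10a/+ in another, and the wild type mice carry the same mixed strain label as the rest. All mice were male, the strain was labelled a mix of C57BL/6 and 129, and the titles call the arrays biological replicates. Nothing more is said of how replicates were separated, so p values measure the spread between these arrays.

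Several features limit the lines as models. The tag stays in every descendant of a cell that once made Cre, so a line reports lineage and not the present activity of the driver. Cdh5-CRE is labelled as marking vascular endothelium at large, so arteries, glomerular and peritubular capillaries, vasa recta and veins are read together. Whether lymphatic endothelium carries the tag was not tested. Any descendants that are not endothelium would be read with them, so endothelial is here the name of a line. Leukocyte genes were also higher in its arrays, and the part of blood cells was not tested. The labels name podocytes and some collecting duct cells as the source of signal in L10a mice without Cre. In bulk arrays, fewer cells of a type and less RNA per cell cannot be told apart.

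Endothelial cells line all blood vessels, are joined by VE-cadherin (Cdh5) and depend on VEGF signalling through the receptor Kdr and on angiopoietin signalling through Tek. In the kidney they are varied: the fenestrated endothelium of the glomerulus filters plasma beside podocytes that make VEGF, peritubular capillaries take back reabsorbed fluid, and the vasa recta sustain the salt and urea gradient of the medulla. Notch ligands and their targets mark arteries, whereas Ephb4 and Nr2f2 are known from veins.

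The deposited intensities were already normalized, so alike medians say nothing of input. Median intensities lay between 110.3 and 122 in the 12 arrays without surgery. The endothelial arrays correlated with each other at 0.9906 to 0.9968 across genes, against 0.986 to 0.9966 within the other lines. The labels name no batch. Values below are log2 intensities, on which 1 unit is a 2-fold difference. A gene was called at an adjusted p under 0.05 in a limma fit over 28 arrays of uninjured kidneys, with Benjamini-Hochberg adjustment over all genes tested, and errors of differences are standard errors of that fit. The brightness of an array feature depends on its probes, so no gene's level is set against another gene's.

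The endothelial markers Cdh5 and Pecam1 were highest in the endothelial arrays. Cdh5, the junction protein whose promoter drives this Cre, had 12.40, 12.22 and 12.24 in the endothelial arrays, against 6.93, 7.45 and 7.25 in the nephron line, 9.54, 9.61 and 10.16 in the interstitial line and 10.00, 10.04 and 10.34 in the macrophage line. Every endothelial array stood above every other array, and the nephron arrays were the lowest. The difference from the mean of the other lines was 3.25 ± 0.12 (SE, n = 3 arrays per line, limma adjusted p = 1.04e-15). Pecam1, an adhesion molecule of endothelium and some blood cells, was higher by 3.49 ± 0.10. Of the driver genes of the nephron and interstitial lines, Six2 averaged 6.50 in the endothelial arrays, against 6.78, 6.63 and 6.55 in the nephron, interstitial and macrophage lines, and Foxd1 averaged 6.70, against 6.41, 7.21 and 7.22. Lyz2, the lysozyme of macrophages and the driver gene of their line, had 12.55, 12.62 and 12.59 in the endothelial arrays, against 6.31, 6.51 and 6.58 in the nephron line, 11.28, 11.25 and 10.35 in the interstitial line and 12.75, 12.96 and 12.85 in the macrophage line.

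In the endothelial arrays 4579 genes were higher than the mean of the other lines (23.9% of those tested) and 4587 were lower (23.9%), with a median difference over all genes of -0.015. Large differences were mostly upward: 1036 of the higher genes and 778 of the lower ones passed a 2-fold difference, while an 8-fold difference was passed by 66 higher genes and by 1 lower gene. That gene, BC018473, is named after its value was seen, and its endothelial arrays overlapped the others. A stricter reading asks for a call in the same direction against each line. It left 1299 genes higher than each of the other 3 lines (6.78%) and 802 lower than each (4.19%). All 3 endothelial arrays lay above all 9 others for 1582 genes (8.26%) and below them for 1142 (5.96%). Among the 1299 genes above each line, the next highest line was macrophage for 652, interstitial for 407 and nephron for 240. Among the 802 genes below each line, nephron was the highest line for 656. The same ranking of lines was not counted over all genes tested.

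The 12 highest genes with no overlap between arrays included several receptors of the endothelial surface. Esm1, a secreted proteoglycan of VEGF-stimulated endothelium, had 11.72, 11.49 and 11.36 in the endothelial arrays, against 5.94 to 6.17 in the nephron line, 6.74 to 7.20 in the interstitial line and 7.72 to 8.28 in the macrophage line. Its endothelial arrays were far above all others, with a difference of 4.49 ± 0.15 (limma adjusted p = 2e-16). Fam167b followed at 4.12 ± 0.08, the smallest error of the 12, with 11.57, 11.63 and 11.68 in the endothelial arrays against 6.76 to 8.72 in the 9 others. The GTPases Gimap6 and Gimap4 differed by 4.11 ± 0.14 and 4.03 ± 0.13, and Adgrl4, an adhesion receptor of the G protein-coupled class, by 3.91 ± 0.11. The angiopoietin receptor Tek (3.85 ± 0.11) and Gpihbp1, which holds lipoprotein lipase on the capillary wall (3.84 ± 0.12), came next. The others of the 12 were S1pr1, a sphingosine-1-phosphate receptor (3.83), Ednrb, the endothelin B receptor (3.77), Rasgrp3, an exchange factor for Ras and Rap1 (3.74), the transcriptional repressor Bcl6b (3.74) and Kdr (3.72). All 12 were also called higher against each line separately, which their choice by size and lack of overlap had made likely.

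Promoters are shown for the 4 highest of these genes, since ETS factors, whose sites share the letters GGAA, are known regulators of endothelial genes. Each is a RefSeq window of 300 bases in GRCm38.p6, from 250 before to 50 after the annotated start, 5′ to 3′ on the gene's strand. Esm1 is at chr13:113209409-113209708 (plus strand), Fam167b at chr4:129578531-129578830 (minus strand), Gimap6 at chr6:48708195-48708494 (minus strand) and Gimap4 at chr6:48684328-48684627 (plus strand). Capitals mark CAGGAA or CCGGAA on either strand, while other runs with GGAA were not searched and are not marked.
Esm1: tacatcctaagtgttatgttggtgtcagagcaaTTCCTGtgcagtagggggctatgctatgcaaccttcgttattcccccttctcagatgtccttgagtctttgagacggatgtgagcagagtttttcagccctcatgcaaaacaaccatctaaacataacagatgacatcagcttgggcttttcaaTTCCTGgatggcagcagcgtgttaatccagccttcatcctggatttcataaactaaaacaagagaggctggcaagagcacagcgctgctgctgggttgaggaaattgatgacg
Fam167b: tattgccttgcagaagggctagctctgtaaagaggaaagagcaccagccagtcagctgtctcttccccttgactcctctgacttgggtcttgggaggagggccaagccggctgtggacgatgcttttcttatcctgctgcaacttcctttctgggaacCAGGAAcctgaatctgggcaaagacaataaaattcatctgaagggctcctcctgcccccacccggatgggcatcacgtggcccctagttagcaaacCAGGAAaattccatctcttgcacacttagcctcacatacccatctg
Gimap6: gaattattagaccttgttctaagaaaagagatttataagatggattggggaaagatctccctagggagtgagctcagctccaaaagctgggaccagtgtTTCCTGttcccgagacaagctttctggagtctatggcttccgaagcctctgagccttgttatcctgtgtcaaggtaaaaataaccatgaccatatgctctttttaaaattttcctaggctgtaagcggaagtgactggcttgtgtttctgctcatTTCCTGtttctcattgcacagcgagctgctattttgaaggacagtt
Gimap4: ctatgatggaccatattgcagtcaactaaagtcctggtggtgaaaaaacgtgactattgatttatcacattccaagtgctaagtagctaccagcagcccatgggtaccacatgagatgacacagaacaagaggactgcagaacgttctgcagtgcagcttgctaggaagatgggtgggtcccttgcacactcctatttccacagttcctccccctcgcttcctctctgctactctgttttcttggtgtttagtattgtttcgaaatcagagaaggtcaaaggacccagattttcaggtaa
Esm1, Fam167b and Gimap6 each held 2 matches, all to CAGGAA, and Gimap4 held 0. At least 1 match was held by 41.4% of all 32851 RefSeq promoters given, and at least 2 by 11.9%. Of the 12 highest genes 9 were in the table, and 7 of those had a match in at least 1 promoter. That count is by gene, whereas the shares above are by promoter. A match is a run of letters and says nothing of binding.

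**Figure D1:**
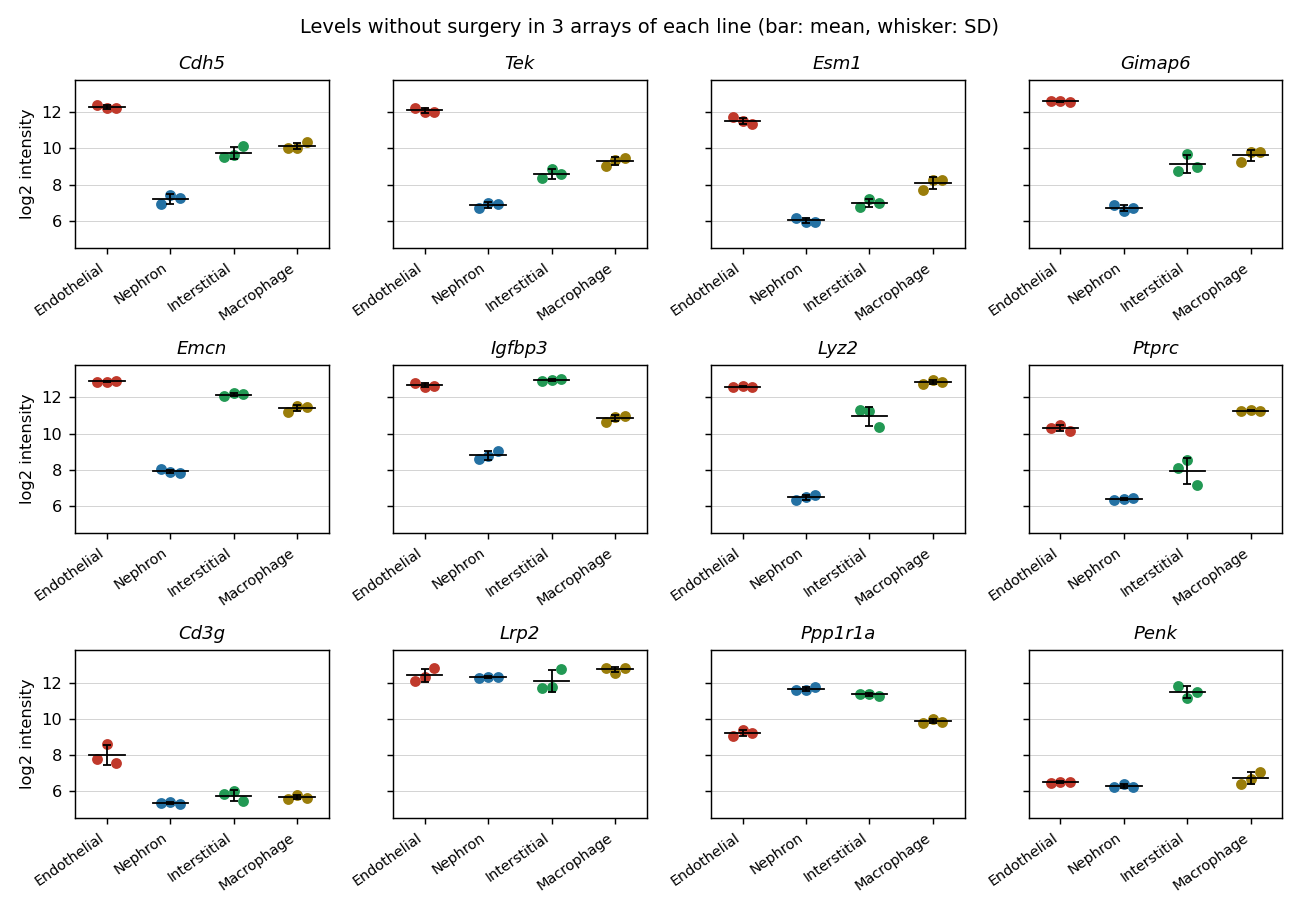
Log2 intensity (y axis) in the 3 arrays of each line without surgery for 12 genes (points, with the mean as a bar and the SD as a whisker). The endothelial arrays stand alone for Cdh5, Tek, Esm1, Gimap6 and Cd3g, lie just above the interstitial arrays for Emcn and just below them for Igfbp3, lie below the macrophage line for Lyz2 and Ptprc, and overlap other lines for Lrp2.

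In the VEGF and angiopoietin pathway the receptors were higher, and all lower members were ligands. Of 18 members tested 14 were higher and 4 lower, with a median difference of 1.91, and 12 were higher than each line. Kdr, the main VEGF receptor, had 12.51, 12.31 and 12.31 in the endothelial arrays, against 6.66, 7.01 and 7.04 in the nephron line, 8.83, 9.05 and 9.45 in the interstitial line and 9.73, 9.96 and 10.20 in the macrophage line. No array of another line came within 2 units of the endothelial ones. The receptors Flt1 (3.63 ± 0.15), Tie1 (3.42 ± 0.09) and Flt4 (2.83 ± 0.10) and Ptprb, the phosphatase that acts on Tek (3.46 ± 0.18), were likewise above each line, whereas the co-receptor Nrp2 was not called against the interstitial line (10.42 in endothelial arrays, 10.44 in interstitial arrays). Vegfa, the ligand made by podocytes and tubules, had 9.05, 9.23 and 9.45 in the endothelial arrays, against 10.64 to 10.79 in the nephron line, 10.38 to 10.59 in the interstitial line and 9.63 to 9.80 in the macrophage line. Every endothelial array was below every other array (-1.06 ± 0.11, limma adjusted p = 1.92e-08). Vegfb (-0.95), Vegfd (-1.40) and Angpt1 (-1.03), the activating Tek ligand, were lower too, with Vegfd and Angpt1 highest in the interstitial line. Angpt2, the ligand that endothelium itself stores, was higher (1.38 ± 0.14), as were Vegfc (0.42, or 0.27 without endothelial replicate 1) and, by a call that was lost without any 1 of the endothelial arrays, Pgf (0.32). The peptide Apln (2.23) and its receptor Aplnr (3.18) were both above each line.

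Of 20 Notch and arterial genes 14 were higher and 2 lower (median 1.25), with 12 above each line. The ligand Dll4 had 10.96, 10.83 and 10.59 in the endothelial arrays, against 7.30 to 7.40, 7.41 to 7.94 and 7.98 to 8.06 in the nephron, interstitial and macrophage lines. It stood clear of all of them (3.11 ± 0.10), as did Efnb2, an ephrin of arteries (2.79), and the receptors Notch4 (1.97) and Notch1 (1.60). The ligand Jag2 (1.71), the target Hey1 (1.79), the artery connexin Gja5 (1.43) and Sema3g (1.72) were higher as well. For the ligand Jag1 the difference was 0.16 ± 0.13 (limma adjusted p = 0.35), and its arrays overlapped in all lines. The lower genes were Heyl (-1.05) and the chemokine Cxcl12 (-1.39), which averaged 8.13 in the endothelial arrays, against 8.61, 11.53 and 8.43 in the nephron, interstitial and macrophage lines.

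The BMP and TGF-beta list had its lower genes among the ligands. Its 15 members gave 10 higher and 3 lower (median 0.51), with 3 above each line, namely Id1, Smad1 and Smad7. The co-receptor Eng was higher by 1.86 ± 0.10, but its endothelial mean of 12.80 was not called against the interstitial 12.55. The target Id1 averaged 12.04 in the endothelial arrays, against 8.67, 9.79 and 9.73 in the nephron, interstitial and macrophage lines (2.64 ± 0.12), and the related Id3 was higher by 1.75. All lower members were ligands, namely Bmp6 (-1.23), Bmp2 (-0.98) and Bmp4 (-0.94). Bmpr1a, a BMP type I receptor outside the list, was among the 12 lowest genes of the whole comparison (-2.14 ± 0.12), with 7.27, 7.46 and 7.87 in the endothelial arrays, against 10.00 to 10.05, 10.31 to 10.59 and 8.45 to 8.61. The endothelial type I receptor Acvrl1 was higher (0.85 ± 0.11).

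Among 28 transcription factors 23 were higher and 2 lower (median 1.38), and 15 were above each line. Klf2, a factor induced by blood flow, had 11.85, 11.72 and 11.66 in the endothelial arrays, against 7.33 to 7.58, 8.02 to 8.53 and 9.32 to 9.37. It stood above all other arrays (3.36 ± 0.09). The ETS factor Erg (3.15), the SoxF factors Sox18 (2.91), Sox7 (2.72) and Sox17 (2.04), and Klf4 (2.00) were also above each line. Against the macrophage line alone, 19 of the 28 factors were higher and 5 lower. Some were near that line: Fli1 averaged 11.33 in endothelial arrays, against 11.01 in macrophage arrays, and Mef2c 10.90, against 10.83. Lyl1 was lower than in the macrophage line (-1.27). Of the vein genes, Ephb4, an ephrin receptor, was higher (1.76 ± 0.10), whereas the factor Nr2f2 was not called (0.01 ± 0.08, limma adjusted p = 0.921) and was highest in the interstitial line (10.54 in endothelial arrays, 11.75 in interstitial arrays). Gata5, a factor of glomerular endothelium, was higher by 1.09, and Etv6, of the ETS family as Erg is (-0.50), and Foxc1 (-0.40) were the lower ones.

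Of 24 junction and adhesion genes 19 were higher and 1 lower (median 2.46), and all 19 higher ones were above each line. Mmrn2 (3.69), Cd34 (3.62), Robo4 (3.31) and the gap junction protein Gja1 (3.18) differed by the largest amounts beside Pecam1 and Cdh5. Emcn, a sialomucin of capillaries and veins, kept a smaller margin over the interstitial line, with 12.87, 12.88 and 12.93 in the endothelial arrays, against 12.06, 12.22 and 12.17 in the interstitial arrays. Ocln, an epithelial tight junction protein, was lower (-0.85). Of the ligands for leukocytes on inflamed vessels, Icam1 was higher (1.01 ± 0.12), but Vcam1 and Sele were not called. Vcam1 differed by 0.41 ± 0.26 and was lower than in the macrophage line (-1.03), and Sele differed by 0.12 ± 0.06.

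Of 20 G protein-coupled receptors and their partners 18 were higher and 0 lower (median 1.90), with 14 above each line. S1pr1 had 11.81, 11.70 and 11.56 in the endothelial arrays, against 6.31 to 7.14, 7.83 to 8.52 and 8.57 to 8.82. The adrenomedullin receptor parts Calcrl (2.92), Ramp2 (2.79) and Ramp3 (2.99) were all above each line. Ackr1, a chemokine scavenger of venules, was near the floor in every line (5.55 in the endothelial arrays).

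For vascular tone and haemostasis 16 of 21 members were higher and 4 lower (median 1.26), with 13 above each line. Nos3, endothelial nitric oxide synthase, averaged 10.15 in the endothelial arrays, against 7.23, 7.73 and 7.94 in the nephron, interstitial and macrophage lines (2.52 ± 0.09). Coagulation factor F8 (2.81), thrombomodulin (Thbd, 2.22) and the natriuretic peptide receptors Npr1 (2.45) and Npr3 (2.27) were higher. Vwf, the carrier of factor VIII in blood, was higher by less (0.74 ± 0.09). The lower members were Ptgis (-0.91), Ace (-0.90), Gucy1a1 (-1.03) and Proc (-0.87), of which Ace and Proc were highest in the nephron line and the other two in the interstitial line. Ptgis, prostacyclin synthase, was called higher than in the nephron line (0.43) and lower than in the interstitial line (-3.05).

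Of 20 genes of caveolae and lipid transport 13 were higher and 3 lower (median 1.09), with 8 above each line. Plvap, the protein of the fenestral diaphragm, had 13.03, 12.87 and 12.94 in the endothelial arrays, against 7.54 to 7.93, 10.04 to 10.39 and 10.57 to 10.74 (3.40 ± 0.09). Cavin3 (2.62), Fabp5 (2.52) and Ehd4 (2.34) were above each line as well. Gpihbp1 had 11.77, 11.57 and 11.48 in the endothelial arrays, against 6.97 to 8.82 in the 9 others, while its partner Lpl was not called (-0.28 ± 0.19, limma adjusted p = 0.236) and overlapped in all lines. The fatty acid carrier Cd36 was lower by a small amount (-0.32 ± 0.13, limma adjusted p = 0.0393), as were Mfsd2a (-1.35) and Slc2a1 (-0.43), transporters known from the blood-brain barrier. Without endothelial replicate 1 the difference of Mfsd2a was -0.88 and Cd36 was not called.

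The lists for single vascular beds held more higher than lower genes. Of 14 glomerular endothelial genes 10 were higher and 1 lower (median 1.02), and 7 were above each line. Ehd3, a marker of glomerular endothelium, had 12.34, 12.48 and 12.35 in the endothelial arrays, against 8.94 to 9.33 in the nephron line, 11.76 to 11.94 in the interstitial line and 10.25 to 10.69 in the macrophage line. The interstitial arrays were the nearest (0.55 ± 0.14). Hecw2 (2.58) and Nostrin (2.12) were higher and Mapt was lower (-1.25), while Cyp26b1, a retinoic acid hydroxylase, was high in 1 endothelial array of the 3 (7.54, 9.97 and 7.96), and its difference of 0.96 was 0.22 and not called without endothelial replicate 2 (limma adjusted p = 0.519). Of 15 genes of veins, vasa recta and peritubular capillaries 11 were higher and 2 lower (median 0.95), with 8 above each line. Slc14a1, the urea transporter of descending vasa recta, had 10.55, 10.33 and 10.17 in the endothelial arrays, against 6.53 to 6.56, 6.77 to 7.21 and 9.23 to 9.53. Igfbp3 was called higher than the mean (1.82 ± 0.10) although it was not called against the interstitial line, whose arrays lay slightly above, with 12.81, 12.60 and 12.64 in the endothelial arrays, against 12.89, 12.94 and 12.99 in the interstitial arrays. The lower members were Igfbp7 (-0.44) and Gpm6a (-0.94).

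Of 10 lymphatic genes 6 were higher and 0 lower (median 1.05), with 5 above each line. Mmrn1, a matrix glycoprotein of lymphatics and platelets, had 9.91, 9.72 and 9.76 in the endothelial arrays, against 5.35 to 5.63 in the nephron line, 7.70 to 9.10 in the interstitial line and 5.68 to 5.88 in the macrophage line. Flt4 and Sema3d (3.13) were higher, whereas Prox1, the regulator of lymphatic fate, was not called (0.22 ± 0.11, limma adjusted p = 0.103), with 7.76, 7.62 and 7.61 in the endothelial arrays and 7.79 to 8.09 in the nephron line. Lyve1 (0.57 ± 0.35) and Pdpn (-0.24 ± 0.16) were not called either. Of 19 basement membrane genes 12 were higher and 3 lower (median 0.62), with 5 above each line. The vascular laminin chain Lama4 differed most (2.70 ± 0.10), followed by Lamc1 (1.70) and Hspg2 (1.54). The lower ones were Col18a1 (-1.10) and the chains of the mature glomerular membrane Col4a3 (-0.59) and Col4a4 (-0.38).

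All 8 Gimap GTPases, a gene family best known from lymphocytes, were higher and above each line (median 2.88). Gimap6 had 12.60, 12.64 and 12.56 in the endothelial arrays, against 6.54 to 6.89, 8.74 to 9.69 and 9.27 to 9.79. Gimap5 (3.64) and Gimap1 (3.10) came after Gimap4, and Gimap7 differed least (0.96). The mean level of the list ran 9.43 to 9.87 in the endothelial arrays, against 6.34 to 6.41, 6.75 to 7.12 and 7.21 to 7.39 in the nephron, interstitial and macrophage lines. Near-identical members of a family can share probes, and this was not tested.

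**Figure D2:**
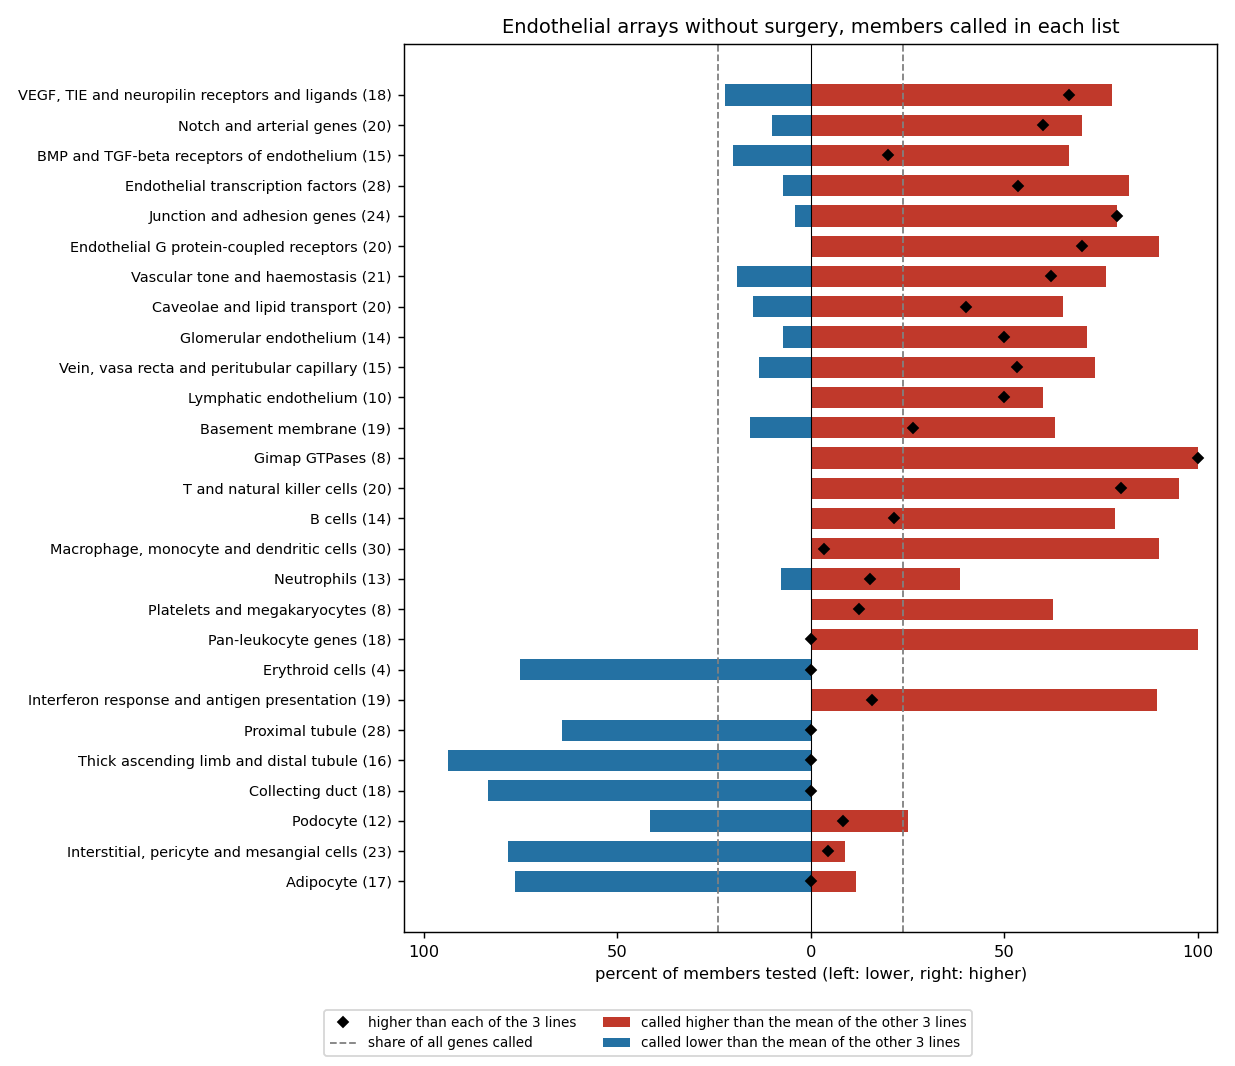
Percent of the tested members of each of 27 gene lists that were called higher or lower in the endothelial arrays than the mean of the other lines. Diamonds give the percent above each line and dashed lines the 23.9% of all genes called in either direction. The diamonds of the junction and Gimap lists sit at the end of their bars, whereas those of the macrophage and pan-leukocyte lists lie at or near 0.

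Leukocyte genes were also higher than the mean of the other lines, and here the macrophage line stood above the endothelial one. Of 30 macrophage, monocyte and dendritic cell genes 27 were higher and 0 lower than that mean (median 1.65), and 1 was above each line. All 18 pan-leukocyte genes were higher (median 1.82) and 0 were above each line. Ptprc, the leukocyte phosphatase CD45, had 10.30, 10.45 and 10.14 in the endothelial arrays, against 6.35 to 6.46 in the nephron line, 7.16 to 8.54 in the interstitial line and 11.23 to 11.33 in the macrophage line. Adgre1, the macrophage antigen F4/80, had 11.39, 11.40 and 11.25 in the endothelial arrays, against 6.13 to 6.15, 8.22 to 9.39 and 12.17 to 12.24. In both genes the endothelial arrays lay between the interstitial and the macrophage arrays without overlap. Of the 48 genes in either list, 47 averaged above the nephron and the interstitial line and below the macrophage line. The share of all genes with this order of lines was not counted. The mean level of the macrophage list was 10.49 to 10.66 in the endothelial arrays, against 6.59 to 6.86, 8.21 to 8.98 and 11.39 to 11.52 in the nephron, interstitial and macrophage lines. The part of blood cells in the endothelial values was not tested.

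Genes of T and natural killer cells were above each line in 16 of 20 cases. Of those 20 genes 19 were higher and 0 lower than the mean (median 0.68). Cd3g, a chain of the T cell receptor complex, had 7.77, 8.63 and 7.57 in the endothelial arrays, against 5.29 to 5.37, 5.43 to 5.99 and 5.57 to 5.76 (2.41 ± 0.15). Nkg7, a granule protein of cytotoxic cells, had 8.99, 9.87 and 8.66 in the endothelial arrays, against 5.68 to 6.03, 6.17 to 6.99 and 7.18 to 7.32. In both genes the endothelial replicate 2 was the highest, and no endothelial array overlapped another line. The list's mean level was 6.81 to 7.49 in the endothelial arrays, against 6.01 to 6.13, 6.14 to 6.23 and 6.46 to 6.55, and the part of these cells in the endothelial values was not tested.

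The other blood cell lists had smaller medians. Of 14 B cell genes 11 were higher and 0 lower (median 0.45), with 3 above each line. Ebf1 (2.28), a B cell factor also made by stromal cells, was not called against the interstitial line, and the antibody joining chain Jchain varied between endothelial arrays (9.55, 8.59 and 9.86). Of 13 neutrophil genes 5 were higher and 1 lower (median 0.20), led by S100a9 (1.76 ± 0.30) and S100a8 (1.62 ± 0.30), which were low in the endothelial replicate 2. Without endothelial replicate 1, and likewise without replicate 3, 3 of them were higher. Of 8 platelet genes 5 were higher and 0 lower (median 0.27), led by Ppbp (1.70) and Pf4 (1.38), and Pf4 was lower than in the macrophage line (-1.56). Of 4 erythroid genes 0 were higher and 3 lower (median -0.22), and without endothelial replicate 1 the lower count was 1.

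Genes of the interferon response and antigen presentation gave 17 higher and 0 lower of 19 (median 1.24), with 3 above each line, namely Gbp4, Ifit1 and Iigp1. Gbp4, an interferon-induced GTPase, had 10.56, 10.27 and 10.10 in the endothelial arrays, against 7.15 to 7.29, 7.65 to 7.97 and 8.53 to 8.98. Psmb8, a subunit of the immunoproteasome, was higher than the mean by 2.04 ± 0.12 and at the level of the macrophage line (11.01 in endothelial arrays, 11.01 in macrophage arrays). The list's mean was 10.11 to 10.36 in the endothelial arrays, against 10.13 to 10.48 in the macrophage arrays, and these ranges overlapped.

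**Figure D3:**
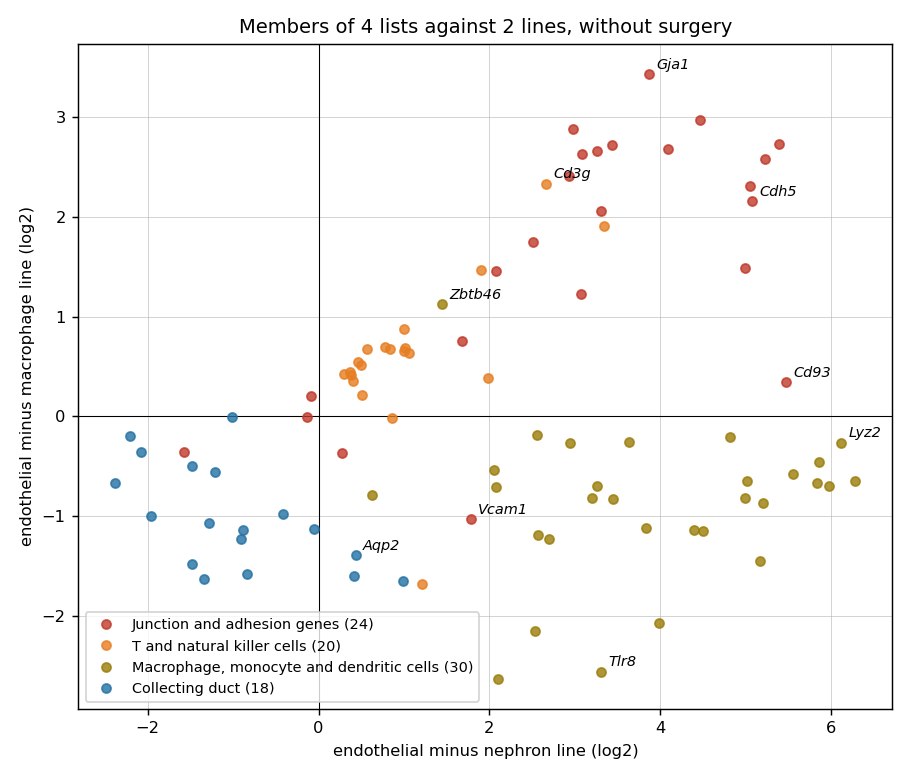
Difference of the endothelial arrays from the nephron line (x axis, log2) and from the macrophage line (y axis, log2) for the members of the junction, T and natural killer cell, macrophage and collecting duct lists (points). Junction and T cell genes lie mostly at the upper right, macrophage genes at the lower right and collecting duct genes mostly at the lower left, and both axes share the 3 endothelial arrays.

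The lowest genes differed by smaller amounts than the highest genes. The 12 lowest genes with no overlap ran from -2.56 to -2.05. Sostdc1, a secreted BMP and Wnt antagonist, had 7.96, 8.31 and 8.29 in the endothelial arrays, against 11.61 to 11.75 in the nephron line, 10.73 to 11.24 in the interstitial line and 9.57 to 9.70 in the macrophage line (-2.56 ± 0.13). Dpep1, a dipeptidase of the proximal tubule brush border, had 8.74, 8.75 and 9.21 in the endothelial arrays, against 11.12 to 11.37, 12.34 to 12.55 and 9.46 to 10.09. The group went on with the glutathione peroxidase Gpx6 (-2.45), Acnat2 (-2.34), the prostaglandin E synthase Ptges (-2.21), the fatty acid binding protein Fabp7 (-2.17), the Wnt inhibitor Sfrp1 (-2.15), Bmpr1a, Cox7a1 of the respiratory chain (-2.13), uroguanylin (Guca2b, -2.12), the desaturase Scd1 (-2.10) and Perp (-2.05). All 12 were called lower against each line separately, which their choice had likewise made likely.

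Of 28 proximal tubule genes 18 were lower and 0 higher (median -0.62), and 1 was below each line. Lrp2, the endocytic receptor megalin, had 12.08, 12.29 and 12.80 in the endothelial arrays, against 12.24, 12.32 and 12.32 in the nephron line, 11.72, 11.78 and 12.77 in the interstitial line and 12.81, 12.55 and 12.82 in the macrophage line. It was not called (0.02 ± 0.27, limma adjusted p = 0.959), nor was its partner Cubn (-0.15 ± 0.33). Slc13a3 (-1.50), Slc22a6 (-1.28) and Slc22a12 (-1.25), transporters of organic anions and urate, were lower. The list's mean level was 10.88 to 11.64 in the endothelial arrays, against 12.31 to 12.36, 11.52 to 11.94 and 11.26 to 11.80 in the nephron, interstitial and macrophage lines, so that the nephron line alone lay wholly above the endothelial range.

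Of 16 genes of the distal tubule and the thick ascending limb 15 were lower and 0 higher (median -1.11), with 7 below each line. Ppp1r1a, a phosphatase inhibitor, had 9.06, 9.38 and 9.20 in the endothelial arrays, against 11.56 to 11.75, 11.27 to 11.39 and 9.76 to 10.01. Umod, the abundant urinary protein uromodulin, was lower by less (-0.55 ± 0.13) and overlapped the macrophage line. Of 18 collecting duct genes 15 were lower and 0 higher (median -0.96), with 6 below each line. The sodium channel subunits Scnn1a (-1.49) and Scnn1g (-1.41) were among the lowest. Aqp2, the water channel of principal cells, had 9.66, 10.25 and 9.20 in the endothelial arrays, against 9.09 to 9.51 in the nephron line, 9.45 to 10.26 in the interstitial line and 11.05 to 11.16 in the macrophage line, and was not called (-0.38 ± 0.20, limma adjusted p = 0.128). The macrophage line was the highest for this gene, and in the L10a mice without Cre Aqp2 averaged 12.84 after sham surgery.

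Podocyte genes gave 3 higher and 5 lower of 12 (median -0.12), and the higher count was near the share of all genes called higher (23.9%). With 1 array left out, 2 to 4 were higher and 4 to 5 lower. The slit diaphragm protein Nphs1 had 7.19, 7.26 and 7.06 in the endothelial arrays, against 7.11 to 7.34, 7.27 to 7.61 and 7.76 to 8.00. Podxl (2.01), Nes (1.34) and Synpo (0.32) were the higher ones, and Podxl and Nes are also made by endothelium. Of 23 interstitial, pericyte and mesangial genes 18 were lower and 2 higher (median -0.90). Pdgfrb, the pericyte receptor, had 9.31, 9.06 and 9.40 in the endothelial arrays, against 7.89 to 8.28 in the nephron line, 12.03 to 12.05 in the interstitial line and 9.48 to 9.96 in the macrophage line. It was called lower than in the interstitial line (-2.78) and higher than in the nephron line (1.14). Tagln (-1.76), Penk (-1.67) and Des (-1.46) were lower, and the higher genes were Thy1 (1.58), also made by T cells, and Vim (0.80). Without the interstitial line in the mean, 2 of the 23 were lower and 4 higher.

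Adipocyte genes gave 13 lower and 2 higher of 17 (median -1.21), and 2 were lower once the interstitial line was left out. Cidec, a lipid droplet protein of fat cells, had 7.21, 7.24 and 6.83 in the endothelial arrays, against 7.13 to 7.53 in the nephron line, 11.39 to 12.56 in the interstitial line and 7.12 to 7.80 in the macrophage line. The endothelial arrays lay below all interstitial arrays and overlapped those of the nephron and macrophage lines. The higher genes were Fabp4 (1.95), a fatty acid carrier that capillary endothelium also makes, and Pparg (0.62).

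Taken line by line, in comparisons that share the 3 endothelial arrays, the counts differed. Against the nephron line 4915 genes were higher (25.7%) and 5852 lower (30.5%), with the leukocyte genes Ly86 (6.28), Cybb (6.24) and Wfdc17 (6.22) highest among genes with no overlap and Sectm1b (-4.14), Angptl7 (-4.10) and the thyroid hormone carrier Ttr (-4.01) lowest. Cybb, an NADPH oxidase subunit of phagocytes, had 12.47, 12.53 and 12.44 in the endothelial arrays, against 6.01, 6.32 and 6.39 in the nephron arrays. The macrophage arrays lay above both (12.95 to 12.96), although the endothelial difference from them was not called. Against the interstitial line 5011 genes were higher (26.2%) and 4027 lower (21%), with Fam167b (4.58), Esm1 (4.54) and Gpihbp1 (4.03) highest and the brown fat subunit Cox8b (-5.18), the opioid precursor Penk (-4.99) and Cidec (-4.77) lowest. Against the macrophage line 2456 genes were higher (12.8%) and 2597 lower (13.6%), with Mmrn1 (4.05), Esm1 (3.44) and Gja1 (3.43) highest and Cd209f (-2.91), Ms4a4a (-2.78) and Lyz1 (-2.63) lowest. Lyz1, a lysozyme, had 9.25, 9.19 and 8.92 in the endothelial arrays, against 11.49, 12.01 and 11.75 in the macrophage arrays. The macrophage mice were 7 weeks old and the endothelial mice 6, and age and line cannot be told apart in that pair.

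The macrophage pair parted lists that the mean had put together. Of the 30 macrophage genes 1 was higher and 23 were lower than in that line (median -0.75), and of the 18 pan-leukocyte genes 0 were higher and 15 lower (median -0.80), while the junction list had 20 higher and 1 lower (median 2.11). The higher macrophage gene was Zbtb46, a factor of dendritic cells and of endothelium, at 8.88 in endothelial arrays, against 7.75 in macrophage arrays. The median of this pair over all genes was 0.

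**Figure D4:**
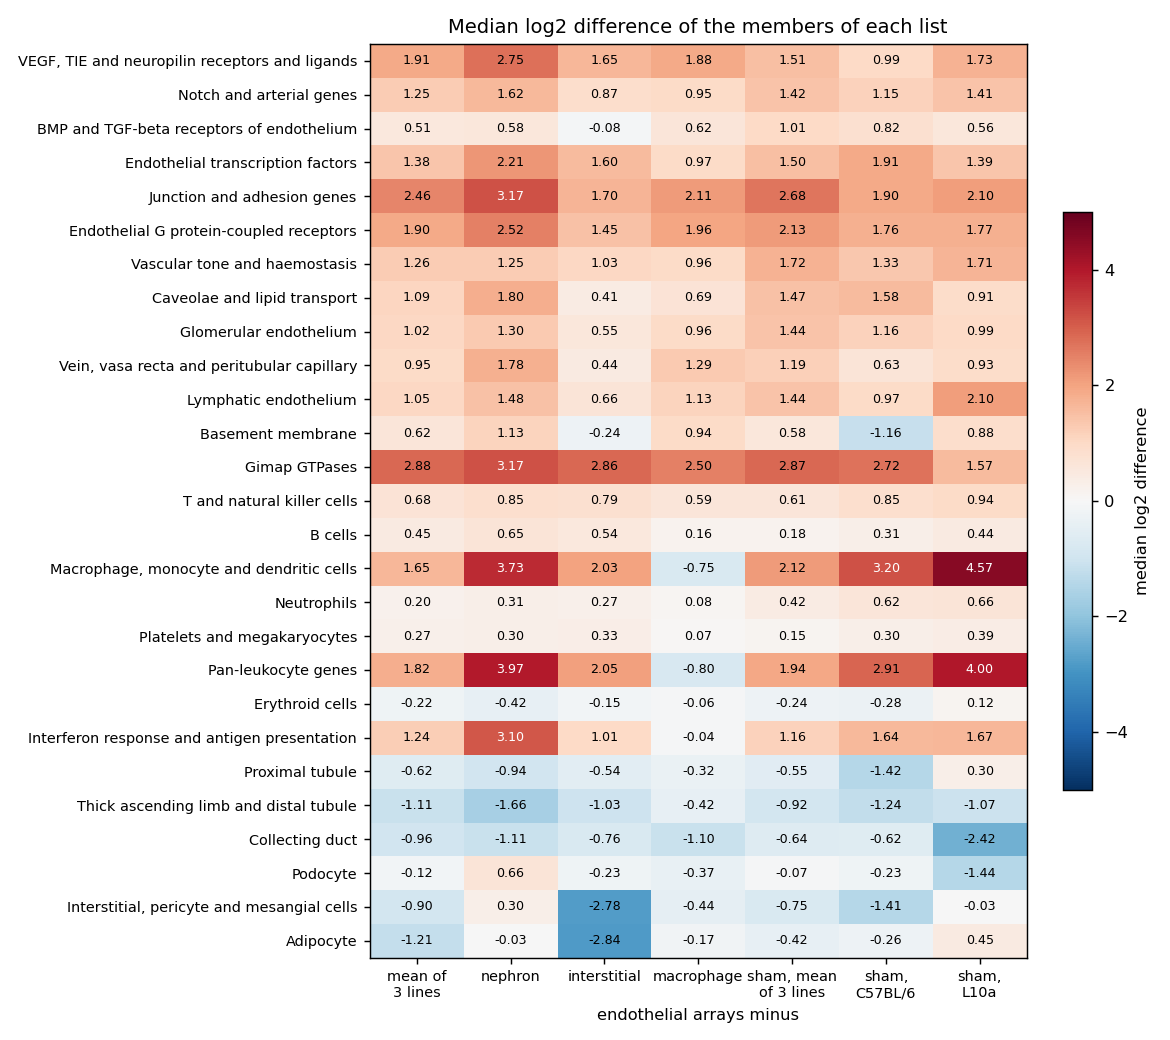
Median log2 difference of the members of each list between the endothelial arrays and each comparison group, as a colour and a number, with sham arrays in the last 3 columns. The medians of the junction list are positive in every column (1.70 to 3.17), and those of the macrophage list run from -0.75 against the macrophage line to 4.57 against the L10a background.

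The same comparison after sham surgery used other arrays of all 4 lines. There 4515 genes were higher in the endothelial arrays (23.6%) and 5139 lower (26.8%). Of the 4579 genes higher without surgery 3774 were also higher after sham surgery, and of the 4587 lower genes 3735 were also lower, while 6 and 9 were called in the opposite direction. Across all genes the differences in both conditions correlated at 0.949, a description over genes that are not independent. Esm1 (4.74), Gimap6 (4.21), Adgrl4 (3.89), Tek (3.83) and Cdh5 (3.29) were higher after sham surgery too. The difference between both conditions was called for 52 genes, 32 with a change toward higher values after sham surgery (0.167%) and 20 with a change toward lower values (0.104%), and 2296 genes had an unadjusted p under 0.05 in limma.

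Genes whose difference was larger after sham surgery included Hey1, Smad6, Smad7 and Tfpi. Hey1, a Notch target of arteries, had 10.64, 10.89 and 9.75 in the endothelial sham arrays, against 9.25, 9.32 and 9.34 without surgery, and its difference from the other lines was larger by 1.12 ± 0.21 (limma adjusted p = 0.0227). Every sham array stood above every array without surgery. Smad6 (0.83 ± 0.15, limma adjusted p = 0.0193) and Smad7 (0.74 ± 0.10, limma adjusted p = 0.00191), inhibitors of BMP and TGF-beta signals, went the same way. For the anticoagulant Tfpi (0.65 ± 0.13) the endothelial mean was 8.76 after sham surgery, against 8.68 without surgery, and the nephron mean was 6.97, against 7.89. Among the 20 genes with a change toward lower values, the following were named after their values were seen. Mcm6, a subunit of the replicative helicase, differed from the other lines by 0.25 after sham surgery, against 1.34 without surgery. Its endothelial arrays overlapped between conditions, with 8.85, 8.59 and 9.39 after sham surgery, against 9.80, 9.69 and 9.34 without. Mcm7, Bub1b, Ncaph and Ncapg had smaller differences after sham surgery too. Bub1b, a mitotic checkpoint kinase, had 7.42, 7.39 and 7.49 in the endothelial sham arrays, against 8.37, 8.10 and 8.09 without surgery, and these arrays did not overlap. For Bank1, a B cell adaptor, the change in the difference was -1.10 ± 0.21 (limma adjusted p = 0.0253). The most negative changes among the 52 genes were in Klk1b22 (-3.08 ± 0.53) and Lrrc55 (-1.35 ± 0.21). The difference of Klk1b22 was -2.30 and called lower after sham surgery, against 0.78 and not called without surgery. This gene, of the kallikrein family whose near-identical members may share probes, had 5.93, 6.05 and 5.89 in the endothelial sham arrays, against 8.04, 8.39 and 8.27 without surgery, and its nephron mean was 9.93 after sham surgery, against 7.36 without. Lrrc55 had 6.59, 6.21 and 6.70 in the endothelial sham arrays, against 8.26, 8.06 and 7.27 without surgery, with no overlap. The nephron mice were 8 weeks old after sham surgery and 6 without, so age and surgery cannot be told apart for that line.

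**Figure D5:**
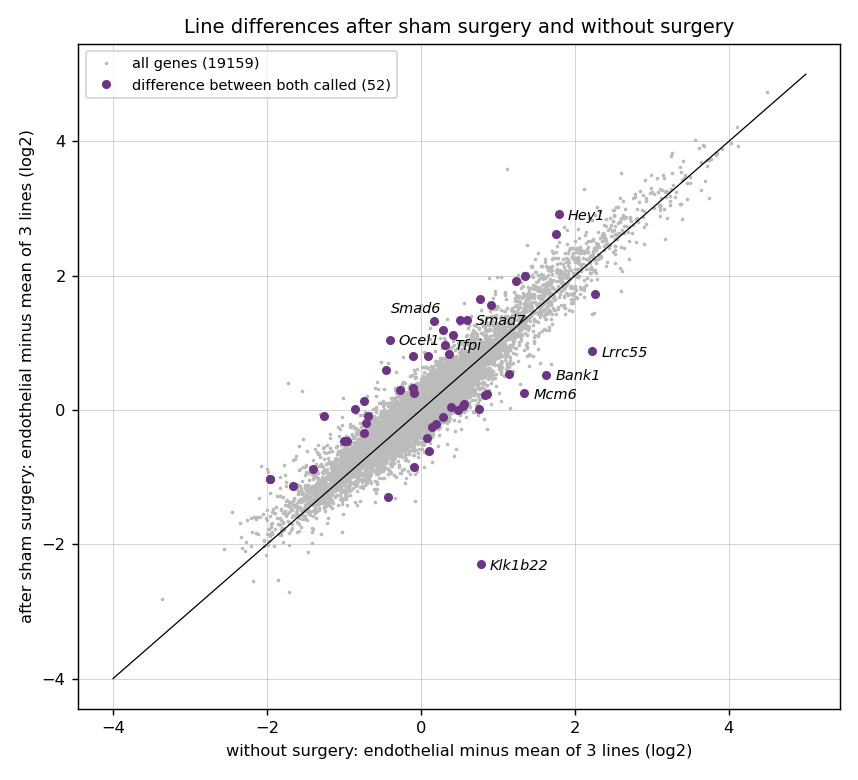
Difference of the endothelial arrays from the mean of the other lines after sham surgery (y axis, log2) against the same without surgery (x axis, log2), with 1 point per gene for 19159 genes and the line of equal values. The 52 genes whose difference was called between conditions are marked, with Hey1 above the line and Bank1 below it.

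The background arrays held RNA from sham kidneys without a tag, or without Cre. Their intensities are normalized, so they show the relative makeup of that RNA and not its amount. Both backgrounds came from mice 8 weeks old and the endothelial sham arrays from mice 6 weeks old, so age and mouse line cannot be told apart here. Against the wild type C57BL/6 background 6089 genes were higher in the endothelial sham arrays (31.8%) and 5837 lower (30.5%), and against the L10a background 3670 were higher (19.2%) and 4474 lower (23.4%). Kdr, Cdh5, Esm1 and S1pr1 were each called higher than in both backgrounds. Kdr averaged 12.45 in the endothelial sham arrays, against 11.14 in the wild type and 10.42 in the L10a background, and Cdh5 averaged 12.26, against 11.00 and 10.58. Kdr and Cdh5 differed from the backgrounds by less than from the nephron line without surgery. Esm1 averaged 11.84, against 6.83 and 9.12, and S1pr1 11.77, against 7.41 and 9.11. Of the 1299 genes above each line without surgery 1021 were above the wild type background after sham surgery, 851 above the L10a background and 748 above both. Of the 106 genes of 11 endothelial lists among them, 94 were above both. The share of all genes above both was not counted, and it cannot exceed the 19.2% above the L10a background.

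Tubule and leukocyte genes differed from the backgrounds in other ways. Lrp2 averaged 12.21 in the endothelial sham arrays, against 13.43 in the wild type and 12.14 in the L10a background, and the proximal tubule list had medians of -1.42 and 0.30 against these backgrounds. Lyz2 averaged 12.73 in the endothelial sham arrays, against 8.07 and 6.47, and the macrophage list had medians of 3.20 and 4.57. The collecting duct list had medians of -0.62 and -2.42. Basement membrane genes had a median of -1.16 against the wild type and 0.88 against the L10a background.

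The 11 endothelial lists together, which share some genes, held 188 tested genes. Of these 142 were higher, 22 lower and 24 not called (median 1.33), and 106 were above each line. For those 106 genes the next highest line was macrophage for 52, interstitial for 47 and nephron for 7, and the lowest line was nephron for 85. This ranking was not counted over all genes tested either. The spread between the 3 endothelial arrays had a median SD of 0.17 over the 488 named and list genes.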

How the data were processed

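RNA recovered by TRAP from mouse kidney, and total RNA in some samples, was hybridised to Affymetrix Mouse Gene 1.0 ST arrays (57 arrays). The deposited values are linear RMA intensities, which the authors made with Affymetrix Expression Console 1.3.1 per the submitters' processing notes, and their log2 was taken here. Genes were named through the platform annotation: 21789 probe sets had 1 symbol, 1621 several and 12146 none, and probe sets with several or none were not used. The probe set with the highest mean stood for each gene, and genes passed the floor if 3 or more arrays exceeded 5 on the log2 scale, which left 19159 genes. Read depth does not apply to arrays, and what limits the precision was not tested.

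With limma 3.58.1 (R 4.3.3) 1 linear model covered 28 uninjured TRAP arrays in 10 groups (18 residual degrees of freedom), with Benjamini-Hochberg adjustment over all genes tested and a threshold of 0.05. The procedure was run on simulated data with independent noise in each gene, which does not cover variation shared between genes. The members and gene lists were chosen with earlier results of these data known, so they carry no independent support. Genes were named by rank among called genes without overlap between arrays and by rank within each list, and 1 further list is not reported here. These genes were named after their values were seen: Ackr1, Acvrl1, Angpt2, Apln, Bub1b, Cubn, Cyp26b1, Ephb4, Fli1, Gata5, Gimap7, Gja5, Icam1, Jag1, Jag2, Klf4, Klk1b22, Lpl, Lrrc55, Lyl1, Lyve1, Mcm6, Mcm7, Mef2c, Ncapg, Ncaph, Notch1, Nr2f2, Nrp2, Pdpn, Pgf, Proc, Ramp2, Sele, Smad6, Smad7, Sox17, Tfpi, Thbd, Tie1, Vcam1, Vegfb, Vegfc, Vwf, BC018473 and Zbtb46. Alternatives covered normalization, filters, probe set choice, arrays in the fit, array weights, a variance trend, a replicate block, and leaving out each array or line.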

Additional observations from a re-analysis of the deposited data

Results flagged for a closer look

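These 12 genes are listed because the endothelial difference after sham surgery and that without surgery themselves differed in the limma fit (Benjamini-Hochberg adjusted p under 0.05 over 19159 genes). In Hey1 the change in the difference was 1.12, in Smad6 0.83, in Smad7 0.74 and in Tfpi 0.65, all larger after sham surgery. It was -3.08 in Klk1b22, -1.35 in Lrrc55, -1.10 in Bank1, -1.09 in Mcm6, -0.75 in Mcm7, -0.62 in Bub1b, -0.62 in Ncaph and -0.50 in Ncapg. Mcm6 averaged 8.94 in endothelial sham arrays, against 9.61 without surgery, while its nephron mean was 8.52 after sham surgery, against 7.97 without. Its interstitial mean was 8.34 after sham surgery, against 7.85 without, and its macrophage mean was 9.22, against 8.99. Bub1b averaged 7.43 in endothelial sham arrays, against 8.19 without surgery, and its nephron means were 6.66 and 6.73. The age of the nephron mice, 8 weeks after sham surgery and 6 weeks without, moved with this comparison, so age and surgery cannot be told apart for that line.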

How the results depend on the processing

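The count of 9166 genes called without surgery stayed within 1.5 times under 24 alternatives and moved under another, a call against all 3 lines, which gave 2101 (1299 higher, 802 lower). Leaving out the nephron, interstitial or macrophage line gave 7217, 8562 and 10498, a fit of the 12 arrays alone 8512, and quantile normalization 9370 (4389 higher, 4981 lower). With the replicate number as a block on those 12 arrays it was 8643. Deviations from the group means correlated above 0.1 in 7 of 18 same-number pairs (-0.32 to 0.411), against a range of -0.604 to 0.471 in the other pairs. With 3 arrays per group, these values cannot settle whether the numbers pair the arrays. Leaving out 1 array gave 8091 to 9330. For the other counts the ranges without 1 array were 9983 to 10307 against the nephron line, 8232 to 8957 against the interstitial line, 4194 to 4926 against the macrophage line, 8343 to 9727 after sham surgery, 10587 to 11618 against the wild type background and 6949 to 7844 against the L10a background. The count for the difference between conditions ran from 42 to 53 over its alternatives.

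Of 189 named genes 151 kept sign and side of the threshold under every alternative fitted to single genes, 24 for each gene and 23 for Ackr1, which the stricter filter removed. The sign turned for 13, and for 6 of them the value was called before or after the turn, each when a line was left out of the mean. Lyz1 was -0.69 without the nephron line, Cox8b 0.10, Pdgfrb 0.35 and Ptgis 0.16 without the interstitial line, and Ms4a4a 0.96 and Nr2f2 -0.51 without the macrophage line. The cause of these turns was not tested. In the other 7 no value was called on either side of the turn: Lyve1 was -0.04 and Vcam1 -0.28 without the nephron line, Aqp2 0.13, Cd209f 0.33 and Prox1 -0.22 without the macrophage line, Cubn 0.06 without endothelial replicate 1, and Lrp2 ran from -0.18 to 0.20, with a turn under 7 alternatives. Nr2f2 also turned without a call under 4 others and Lyz1 under 1. Calls near the threshold (Pgf, Six2, Cd36) were lost under several alternatives, and the cause was not tested. With 3 arrays per line, small differences are not resolved.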
